A study of Mus musculus with 8 samples.

Results

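The miR-29 family was followed in small RNA libraries of mouse bone marrow-derived macrophages (BMDMs), grown for 7 days in culture from marrow of 10-week-old male C57BL/6J mice. The 5 members were chosen by name: the 3p strands mmu-miR-29a-3p, mmu-miR-29b-3p and mmu-miR-29c-3p, and the 5p strands mmu-miR-29a-5p and mmu-miR-29c-5p. Both deposited tables listed all 5, among 3514 features in either table, of which 1063 were mature miRNAs. BMDMs were either left untreated or kept for 36 h in medium without Macrophage-Colony Stimulating Factor (M-CSF), the growth factor they need to survive, and no genetic change was made in either condition. Each condition had 2 libraries in the Ion Proton run, made from separate biological replicates. In the SOLiD run each condition had 1 library of total RNA and 1 of RNA cut from a gel at 25 to 40 nt. Levels are given as CPM for the Ion Proton run and RPM for the SOLiD run, that is, the reads on a feature in 1000000 reads on all listed features of that library.

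MicroRNAs are cut from hairpin transcripts, and one strand of the hairpin is loaded onto an Argonaute protein to silence mRNAs that match its seed, the bases near its 5′ end. The strand that is kept in most cells is the 3p strand for this family. miR-29 is known for silencing mRNAs of collagens and other matrix proteins and of DNA methyltransferases. It has also been described as a repressor of Mcl1, a protein of the Bcl-2 family that holds back apoptosis by the mitochondrial route. Mcl1 mRNA was not measured in these libraries of small RNA.

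The mature sequences are shown because the 3 3p strands share 1 seed and differ at few other bases, which bears on how reads can be told apart. Sequences and places were taken from RefSeq (GRCm38.p6, the release of mm10 to which the reads were mapped), where all 5 members matched by name. They run 5′ to 3′ with the seed, bases 2 to 8, in capitals.
mmu-miR-29a-3p: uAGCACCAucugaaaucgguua
mmu-miR-29b-3p: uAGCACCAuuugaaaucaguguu
mmu-miR-29c-3p: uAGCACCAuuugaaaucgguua
mmu-miR-29a-5p: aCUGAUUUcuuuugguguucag
mmu-miR-29c-5p: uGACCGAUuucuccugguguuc

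Counted from 1 at the 5′ end, mmu-miR-29a-3p and mmu-miR-29c-3p differ only by C10U, with the base of miR-29a first. mmu-miR-29b-3p and mmu-miR-29c-3p share their first 17 bases and then differ by A18G, G21U and U22A, with the base of miR-29b first. The authors kept Ion Proton reads of 15 bases or more, so that a read that ended before position 18 could not be assigned to one of these last 2 strands. Among the 864 of 1063 listed mature miRNAs with a sequence in RefSeq, only the 3 3p members carried the seed AGCACCA. The seeds of the 5p members, CUGAUUU and GACCGAU, were each found in no other of these miRNAs.

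The family comes from 4 hairpin genes in 2 places of the genome. On chromosome 6, minus strand, Mir29a lies at chr6:31062660-31062747 and Mir29b-1 at chr6:31063023-31063093, with 275 bases between them. On chromosome 1, plus strand, Mir29b-2 lies at chr1:195037040-195037120 and Mir29c at chr1:195037547-195037634, with 426 bases between them. mmu-miR-29a-3p and mmu-miR-29a-5p are the arms of Mir29a (chr6:31062673-31062694 and chr6:31062711-31062732), and mmu-miR-29c-3p and mmu-miR-29c-5p those of Mir29c (chr1:195037600-195037621 and chr1:195037562-195037583). mmu-miR-29b-3p has the same sequence at Mir29b-1 (chr6:31063025-31063047) and Mir29b-2 (chr1:195037091-195037113). Its reads therefore cannot be divided between these genes.

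A match to the family's seed was looked for in the 3′ untranslated region (UTR) of Mcl1, on the plus strand of chromosome 3, with the GENCODE annotation of GRCm38. The motif was TGGTGCT, the complement of bases 2 to 8, read on the mRNA strand only. It occurred 1 time in the 2353 bases of the UTR of transcript ENSMUST00000037947 (chr3:95660824-95663176), at chr3:95661859-95661865 in the last exon. The window chr3:95661839-95661867 is shown with the match in capitals, followed by an A opposite base 1 of the miRNA.
Mcl1 3′ UTR: gcaggctagagtcttaaccaTGGTGCTat

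Among 1319 genes whose longest 3′ UTR was within 10% of that length, 21.9% held the motif and 5.53% held it followed by an A. A match of letters is not a measured binding site.

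Reads on listed features numbered 6053130 to 7760142 per library in the Ion Proton run and 4039837 to 12178454 in the SOLiD run. Reads on mature miRNAs made up 39.99% and 41.2% of these in Ion Proton controls, and 29.5% and 29.9% after M-CSF withdrawal. In the SOLiD run the same share was 82.0% and then 41.1% in total RNA, and 87.2% and then 45.0% in RNA of 25 to 40 nt. A miRNA with an unchanged share of the miRNA reads was thus lower in CPM or RPM after withdrawal, so changes are given below both on that scale and relative to the mature miRNA reads. The labelled RNA integrity number was 7.5 to 8.9 in total RNA and 2.6 and 2.7 in size selected RNA. In SOLiD total RNA it was 8.4 in the control and 7.5 in the withdrawal library, so RNA quality and treatment cannot be told apart in that pair. In the Ion Proton run it was 8.8 and 8.4 in control and 8.9 and 8.4 in withdrawal libraries. Of 6 miRNAs listed as myeloid, the SOLiD table had 4 under those names. Those listed summed to 95614 to 384727 RPM in the SOLiD and 51107 to 73997 CPM in the Ion Proton libraries. Most of each sum was mmu-miR-21a-5p, with 61224 to 359445 RPM and 42646 to 63063 CPM. mmu-miR-223-3p had 4473 to 11725 RPM and 66.9 to 96.5 CPM. The 15 miRNAs listed as markers of other cell types summed to 29.6 to 39.9 CPM in the Ion Proton libraries, where 7 or 8 of them had reads. They summed to 3651 to 5899 RPM in the SOLiD libraries, where 12 had reads, with 2394 to 3988 RPM for the erythroid mmu-miR-451a alone. Of the 15, 3 had no row in the SOLiD table and 7 none in the Ion Proton table, the neuronal mmu-miR-124-3p and the muscle mmu-miR-1a-3p among them in both.

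The levels of the 3p members differed far more between the runs than between the conditions. mmu-miR-29a-3p, the most abundant member in each of the 8 libraries, had 164 and 169 CPM in the Ion Proton controls and 120.1 and 133 CPM after M-CSF withdrawal, from 783 to 1276 reads. The SOLiD libraries of total RNA had 5078 RPM in control cells and 2936 RPM after withdrawal. In RNA of 25 to 40 nt it had 4975 and 3855 RPM. Its level was lower in the withdrawal libraries than in the control libraries of the same kind each time. In the Ion Proton run the values did not overlap (exact two-sided permutation test, p = 0.333, the smallest that 2 libraries against 2 allow). The share of all features without overlap was not counted. In the Ion Proton test described below, 411 of 600 mature miRNAs had a log2 fold change below 0. In SOLiD total RNA 238 of 258 mature miRNAs with at least 10 RPM in each of the pair were lower. In RNA of 25 to 40 nt 200 of 262 were. mmu-miR-29a-3p ranked 20 and 21 among the mature miRNAs of the SOLiD total RNA libraries but 79 to 85 in the Ion Proton libraries.

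mmu-miR-29c-3p, which differs from it by a single base, came next. The Ion Proton controls had 115 and 109 CPM of it, and the withdrawal libraries 80.7 and 97.6 CPM after withdrawal, from 526 to 896 reads. In the SOLiD run it had 1287 RPM and then 516 RPM in total RNA, and 1196 and 668 RPM in RNA of 25 to 40 nt. Again every withdrawal value was below the control values of its own kind of library, and most mature miRNAs also had a log2 change below 0 (above).

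mmu-miR-29b-3p, the strand made from 2 genes, was the least abundant of the 3p members. Its Ion Proton level was 31.3 and 23.4 CPM in control cells and 19.3 and 28.9 CPM after withdrawal, from 126 to 243 reads. These values overlapped between the conditions. In the SOLiD run it had 429 and then 249 RPM in total RNA, and 553 and 283 RPM in RNA of 25 to 40 nt.

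The order of the 3p members was thus the same in the 8 libraries, miR-29a, then miR-29c, then miR-29b. With strands of 22 or 23 bases no correction for length was made. In the Ion Proton control libraries the means were 166.7 ± 3.17, 112 ± 4.54 and 27.4 ± 5.60 CPM (SD, n = 2), and neighbours in that order lay further apart than their spread. The SOLiD level of the control cells was 30.5 times the Ion Proton mean for mmu-miR-29a-3p, 15.7 times for mmu-miR-29b-3p and 11.5 times for mmu-miR-29c-3p. The contrast was smaller as a share of mature miRNA reads. For mmu-miR-29a-3p this was 0.619% in the SOLiD control beside 0.0411% and 0.0410% in the Ion Proton controls. For mmu-miR-29b-3p it was 0.0523% beside 0.00783% and 0.00567%, and for mmu-miR-29c-3p 0.157% beside 0.0289% and 0.0264%. The runs differed in library kit, platform, mapping and cultures, which cannot be told apart here. The summed markers of other cell types were also higher in the SOLiD libraries (above), and their part in these levels was not tested. The 3p members are shorter than the 25 nt at which the gel cut began, yet their RPM in the control library so selected was 0.930 to 1.29 times that in total RNA. Read lengths are not given in the tables.

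**Figure D1:**
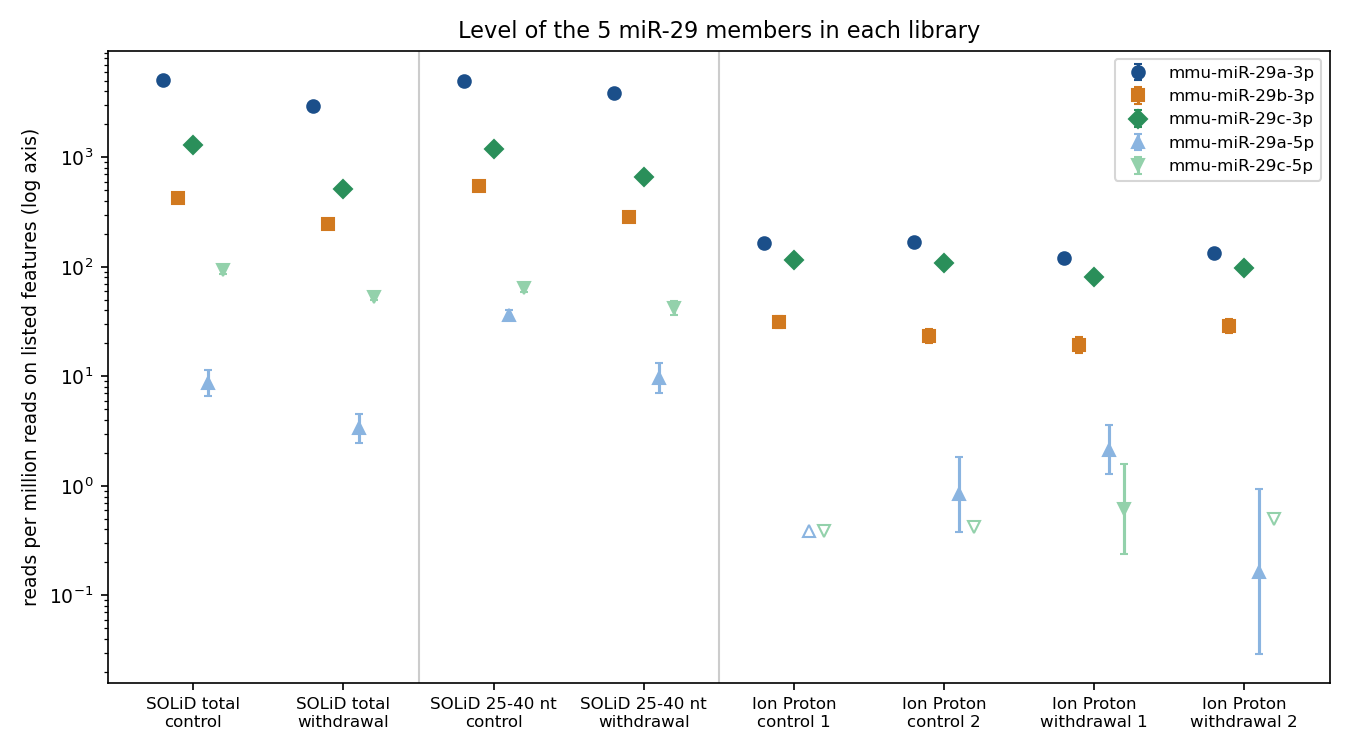
Level of the 5 miR-29 members in each of the 8 libraries, in CPM or RPM on a log axis; bars are 95% Wilson intervals for counting error and open symbols mark 0 reads, drawn at the level that 3 reads would have. The 3p members lie between 19.3 and 169 CPM in the Ion Proton libraries and between 249 and 5078 RPM in the SOLiD libraries, in the same order throughout, and the 5p members lie below them.

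The first comparison asked whether M-CSF withdrawal changed the members in the replicated Ion Proton run. None of the 4 members tested with edgeR passed the threshold of 0.05 for the adjusted p-value, and mmu-miR-29a-3p alone had an unadjusted p under 0.05. By edgeR's quasi-likelihood test with TMM scaling and Benjamini-Hochberg adjustment, the log2 fold change of mmu-miR-29a-3p was -0.34 (standard error 0.0979, adjusted p = 0.0709). That of mmu-miR-29c-3p was -0.28 (standard error 0.133, adjusted p = 0.227 by the same edgeR test). That of mmu-miR-29b-3p was -0.13 (standard error 0.270, adjusted p = 0.776 by edgeR), and 0.15 without M-CSF withdrawal replicate 1. In the same test 24.6% of all 2029 features passed, 8.97% as lower after withdrawal, and 80 of 600 mature miRNAs (13.3%) passed as lower. In bulk RNA, fewer cells that hold a miRNA and less of it per cell cannot be told apart.

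The 3p members lay near the middle of all mature miRNAs tested, whose median log2 fold change was -0.39. Of the 600, 53.3% had a lower value than mmu-miR-29a-3p, 57.3% a lower value than mmu-miR-29c-3p and 64.5% a lower value than mmu-miR-29b-3p. With the TMM factors set on mature miRNAs only, the median of all features moved from 0.08 to 0.46. The log2 fold changes then became 0.04 for mmu-miR-29a-3p, 0.10 for mmu-miR-29c-3p and 0.24 for mmu-miR-29b-3p, all with the opposite sign (adjusted p from 0.593 to 0.824 by edgeR). Under that scaling 420 features passed as higher and 20 as lower, in place of 318 and 182. The call for mmu-miR-29a-3p also changed with scaling over all features, since its log2 fold change was -0.47 with RLE size factors (adjusted p = 0.0352 by edgeR). It passed too by DESeq2 (adjusted p = 0.0257) and by limma on log2 CPM (adjusted p = 0.0378). More of all features also passed as lower in these fits, 255 with RLE, 238 by DESeq2 and 229 by limma, in place of 182. The median over mature miRNAs was -0.51, -0.52 and -0.33 in the same order, in place of -0.39. Without control replicate 1, which left 1 control library, the edgeR log2 fold change of mmu-miR-29a-3p was -0.48.

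As a share of the mature miRNA reads, the 3p members did not separate the conditions in the Ion Proton run. mmu-miR-29a-3p took 0.0411% and 0.0410% of these reads in control cells and 0.0407% and 0.0445% after withdrawal. mmu-miR-29c-3p took 0.0289% and 0.0264%, then 0.0273% and 0.0327%. mmu-miR-29b-3p took 0.00783% and 0.00567%, then 0.00655% and 0.00968%. The values of the conditions overlapped for each strand. The exact two-sided permutation test gave p = 1 for mmu-miR-29a-3p and p = 0.667 for each of the other 2, with 0.333 as the smallest p that 2 libraries against 2 allow. Together the 3 strands took 0.0754% ± 0.00335 (SD, n = 2) in control cells and 0.0807% ± 0.00867 (SD, n = 2) after withdrawal.

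**Figure D2:**
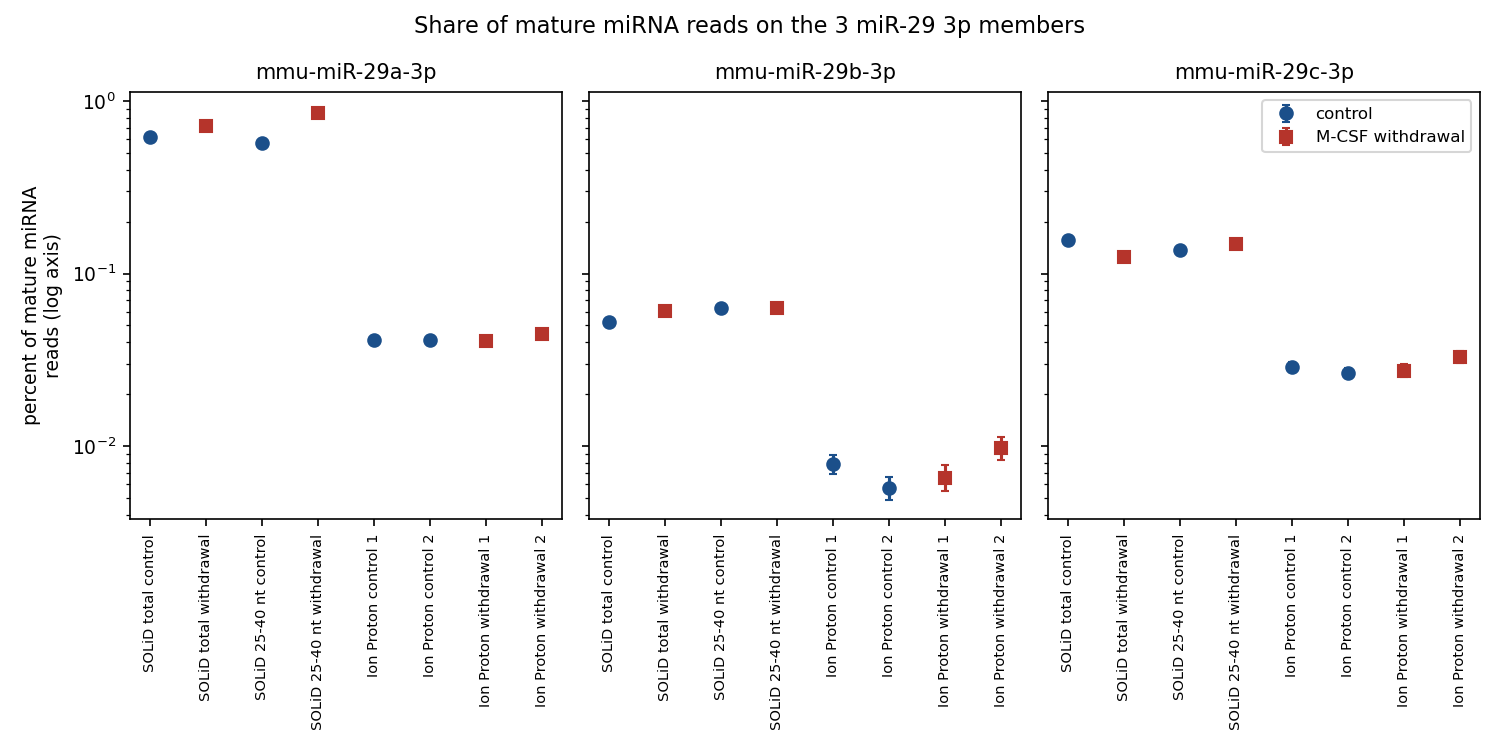
Percent of the reads on mature miRNAs that fell on each 3p member, on a log axis, in control (circles) and M-CSF withdrawal (squares) libraries, with 95% Wilson intervals for counting error. In the Ion Proton run the conditions overlap for each strand, and in the SOLiD run mmu-miR-29a-3p took 0.619% and 0.570% in control libraries and 0.714% and 0.857% after withdrawal.

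The SOLiD run had 1 library a condition, so that its differences have no test and its intervals cover counting error only. In total RNA the log2 ratio of withdrawal to control, on RPM plus 1, was -0.79 for mmu-miR-29a-3p (95% counting interval -0.81 to -0.77). It was likewise -0.79 for mmu-miR-29b-3p (-0.86 to -0.71) and -1.32 for mmu-miR-29c-3p (-1.37 to -1.27). Among 978 features that reached 10 RPM in each of the pair, the median was 0.43, and among the 258 of them that were mature miRNAs it was -0.71. mmu-miR-29c-3p lay toward the low end of these miRNAs, with 17.1% below it, whereas 45.0% lay below mmu-miR-29a-3p and 45.3% below mmu-miR-29b-3p.

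In RNA of 25 to 40 nt the log2 ratio was -0.37 for mmu-miR-29a-3p (-0.39 to -0.34), -0.96 for mmu-miR-29b-3p (-1.05 to -0.87) and -0.84 for mmu-miR-29c-3p (-0.90 to -0.78). The median over 262 mature miRNAs was -0.81 and that over 903 features 0.90. Of these miRNAs, 67.9% lay below mmu-miR-29a-3p.

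The sign of these SOLiD ratios depended on the scale for most strands. Scaled to mature miRNA reads, the log2 ratio of mmu-miR-29a-3p was 0.20 in total RNA and 0.59 in RNA of 25 to 40 nt. That of mmu-miR-29b-3p was 0.21 and -0.01, and that of mmu-miR-29c-3p was -0.32 and 0.11. Only mmu-miR-29c-3p in total RNA was thus lower after withdrawal on this scale by more than counting error, which fell there from 0.157% to 0.125% of the mature miRNA reads (95% Wilson intervals 0.153 to 0.161 and 0.122 to 0.129).

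**Figure D3:**
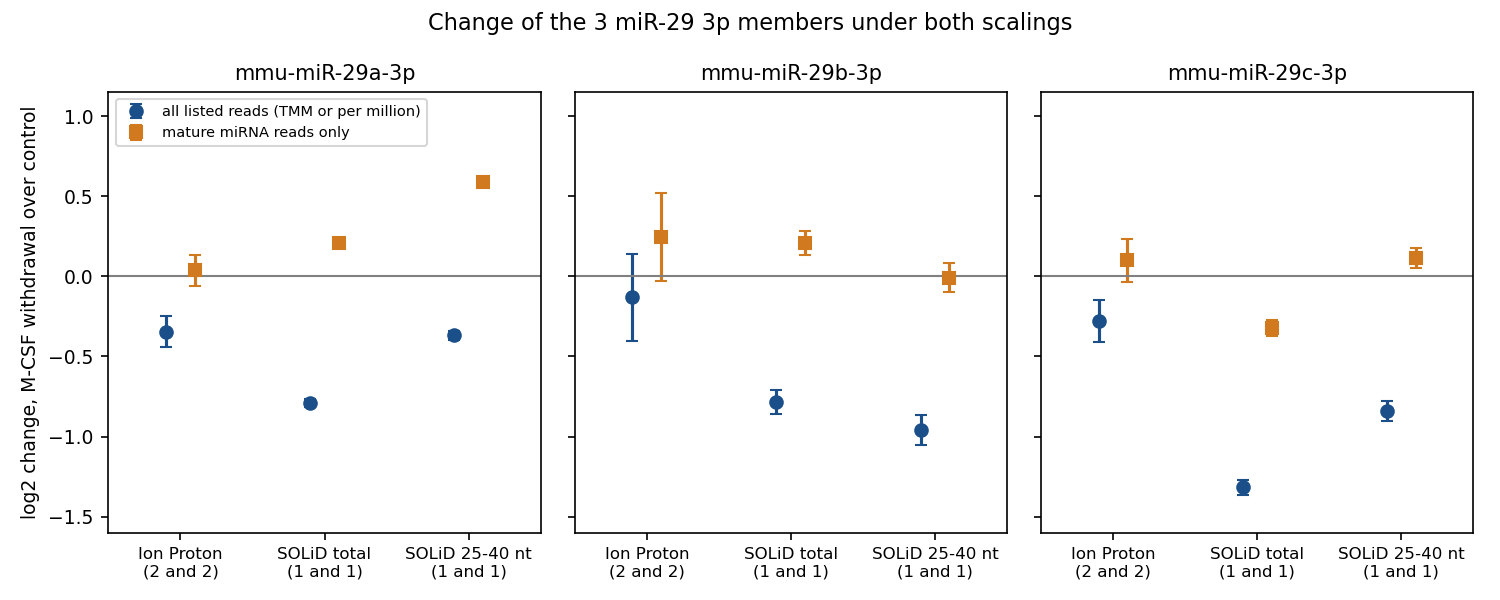
Log2 change of each 3p member after M-CSF withdrawal, scaled to all listed reads (circles) or to mature miRNA reads (squares); Ion Proton values are edgeR log2 fold changes with bars of 1 standard error, SOLiD values are log2 ratios of single libraries with 95% counting intervals. The 9 circles lie below 0, from -0.13 to -1.32, and the squares lie from -0.32 to 0.59.

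The next comparison took the 6 libraries of total RNA of both runs together, in a limma model with treatment and run. These terms are those of the study's methods, but the values were log2 of CPM or RPM plus 1 with an intensity trend, in place of the voom transformation that the study applied to counts. No member passed the threshold by limma, whereas mmu-miR-29a-3p and mmu-miR-29c-3p had an unadjusted p under 0.05. The log2 fold change was -0.53 for mmu-miR-29a-3p (standard error 0.162, adjusted p = 0.0755 by limma). It was -0.66 for mmu-miR-29c-3p (standard error 0.252, adjusted p = 0.127 by limma) and -0.39 for mmu-miR-29b-3p (standard error 0.272, adjusted p = 0.352 by limma). With voom on the counts and the recovered reads, the falls were larger, at -0.96 for mmu-miR-29a-3p, -1.15 for mmu-miR-29c-3p and -0.94 for mmu-miR-29b-3p, and none passed (adjusted p from 0.0621 to 0.105 by limma). The median over mature miRNAs was then -0.96 and that over all features -0.11, with 219 features higher and 178 lower. In the fit without voom, of all 1701 features tested, 17.3% passed, 5.70% as lower, and 43 of 443 mature miRNAs (9.71%) passed as lower. The median of these miRNAs was -0.45 in that fit. Scaled to mature miRNA reads, the median of all features moved from 0.17 to 0.69, the features past the threshold went from 198 higher and 97 lower to 300 and 2, and the members had 0.10, -0.03 and 0.24 for miR-29a, miR-29c and miR-29b (adjusted p from 0.586 to 0.938 by limma). Without either SOLiD library, and so within the Ion Proton run, mmu-miR-29a-3p passed (-0.40, adjusted p = 0.0257 and 0.0248 by limma). It also passed with each library centred on its median (-0.83, adjusted p = 0.0345 by limma). Of the 443 mature miRNAs, 109 and 108 passed as lower without the SOLiD control or withdrawal library. With centring 117 did, in place of 43.

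The change was then compared between the runs by the interaction of treatment and run. For mmu-miR-29c-3p the log2 fold change of the Ion Proton run was 0.98 above that of the SOLiD run (standard error 0.208, adjusted p = 0.0285 by limma), a smaller fall in the Ion Proton run. This difference did not pass after scaling to mature miRNA reads (0.44, adjusted p = 0.202 by limma). It passed with pseudocounts of 0.5 and 5 and a minimum of 10 reads (adjusted p from 0.0205 to 0.0306 by limma). In these fits 79 and 338, 171 and 474, and 93 and 374 features passed as higher and lower. With each library centred on its median it passed (1.45, adjusted p = 0.0108 by limma), as did that of mmu-miR-29a-3p (0.87, adjusted p = 0.0206 by limma). Without 1 of the 4 Ion Proton libraries the difference of mmu-miR-29c-3p was 0.85 to 1.12. It did not pass in any of these fits, each of which kept 1 Ion Proton library in 1 condition. Other features still passed without either control replicate (below), but none did without either withdrawal replicate. The corresponding differences were 0.39 for mmu-miR-29a-3p (adjusted p = 0.114 by limma) and 0.60 for mmu-miR-29b-3p (adjusted p = 0.360 by limma). In this test 26.0% of the 1701 features passed, 85 with the higher and 358 with the lower value in the Ion Proton run, and the median over mature miRNAs was 0.38. These counts were 25 and 576 after scaling to mature miRNA reads, 244 and 246 with each library centred on its median, 24 and 151 without control replicate 1, and 22 and 189 without control replicate 2. The 2 SOLiD libraries entered it under the assumption that they vary like the Ion Proton ones.

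The make-up of the family does not depend on the scaling between libraries. Of the reads on the 3 3p members, 52.8% and 56.1% were mmu-miR-29a-3p in the Ion Proton controls, 37.1% and 36.2% were mmu-miR-29c-3p, and 10.1% and 7.76% were mmu-miR-29b-3p. After withdrawal these shares were 54.6% and 51.2% for mmu-miR-29a-3p, 36.7% and 37.6% for mmu-miR-29c-3p, and 8.78% and 11.1% for mmu-miR-29b-3p. The conditions overlapped for each strand (exact two-sided permutation test, p = 0.667 for each).

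In the SOLiD run mmu-miR-29a-3p made up a larger part. Its share of total RNA reads on these strands was 74.7% in control cells and 79.3% after withdrawal (95% Wilson intervals 74.3 to 75.2 and 79.0 to 79.7). In RNA of 25 to 40 nt it was 74.0% (73.6 to 74.3) and 80.2% (79.6 to 80.8). The share of mmu-miR-29c-3p was 18.9% and then 13.9% in total RNA, and 17.8% and then 13.9% in RNA of 25 to 40 nt. Both pairs of SOLiD libraries thus had more of miR-29a and less of miR-29c after withdrawal, by more than counting error. mmu-miR-29b-3p was 6.32% and then 6.72% in total RNA, and 8.22% and then 5.90% in RNA of 25 to 40 nt, so that it moved in opposite ways. The Ion Proton libraries did not show the shift of the SOLiD run, and all 4 had more miR-29c relative to miR-29a. The ratio of miR-29a to miR-29c was 1.36 to 1.55 in these, 3.95 and 5.69 in the SOLiD control and withdrawal libraries of total RNA, and 4.16 and 5.77 in those of RNA of 25 to 40 nt. The part of reads assigned between these nearly identical strands was not tested.

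**Figure D4:**
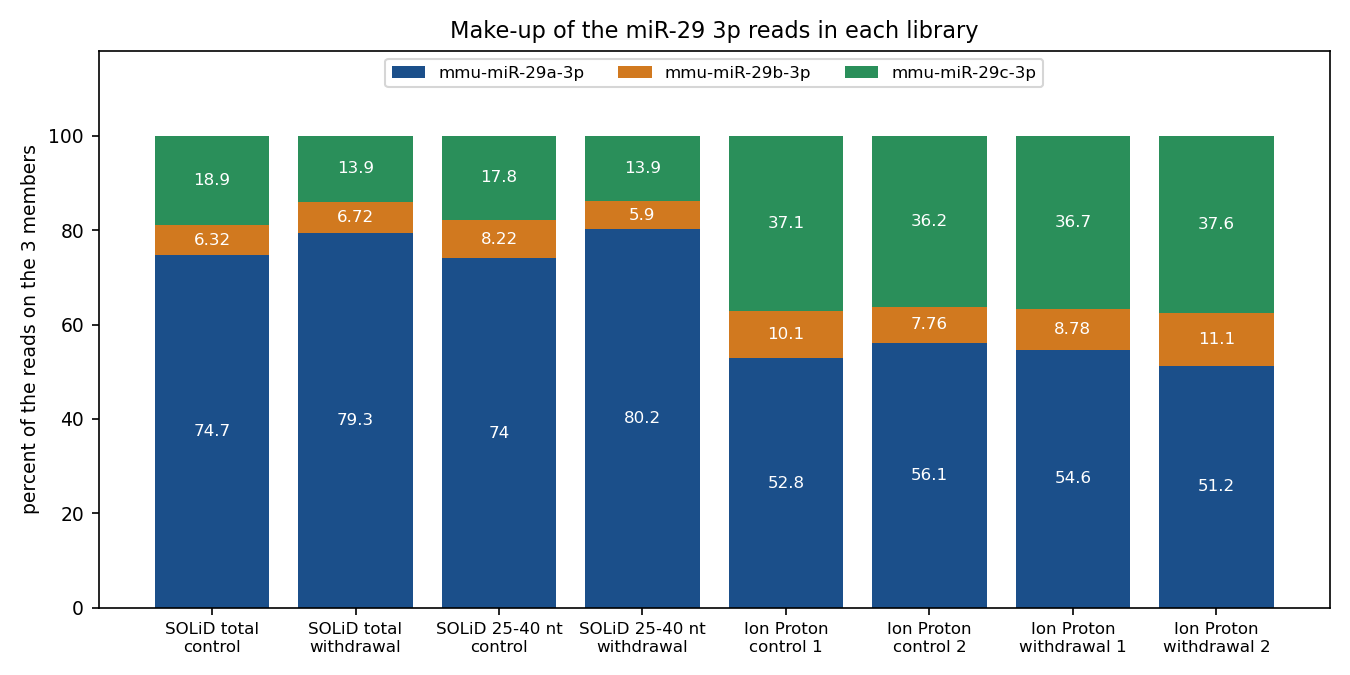
Percent of the reads on the 3 miR-29 3p members that fell on each of them, in each library. mmu-miR-29a-3p makes up 51.2% to 56.1% in the Ion Proton libraries and 74.0% to 80.2% in the SOLiD libraries, and mmu-miR-29c-3p makes up 36.2% to 37.6% and 13.9% to 18.9%.

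The 5p strands, which leave the hairpin as the partner of the 3p strands, had few reads. mmu-miR-29a-5p had 8.66 RPM in control cells and 3.37 RPM after withdrawal in SOLiD total RNA, from 50 and 41 reads, and 36.6 and 9.65 RPM in RNA of 25 to 40 nt, from 326 and 39 reads. Its Ion Proton libraries held 0 and 6 reads in control cells and 14 and 1 after withdrawal. A count of 0 allows up to 0.387 CPM there. Its log2 fold change was 1.496 in the Ion Proton run (standard error 1.76, adjusted p = 0.617 by edgeR) and turned to -1.17 without M-CSF withdrawal replicate 1, which held 14 of its 21 reads. With TMM factors set on mature miRNAs it was 1.91. In both runs together it was -0.05 (adjusted p = 0.954 by limma), and 0.58 scaled to mature miRNA reads.

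mmu-miR-29c-5p had 93.9 and 53.3 RPM in SOLiD total RNA and 64.2 and 42.3 RPM in RNA of 25 to 40 nt, from 171 to 649 reads. In the Ion Proton run it had 4 reads in M-CSF withdrawal replicate 1 and 0 in the other 3 libraries, so that it did not reach the minimum summed count of 5 for a test. The SOLiD log2 ratio of mmu-miR-29c-5p was -0.81 in total RNA and -0.59 in RNA of 25 to 40 nt. That of mmu-miR-29a-5p was -1.15 and -1.82. Scaled to mature miRNA reads, mmu-miR-29c-5p had the opposite sign, with 0.18 and 0.35, while mmu-miR-29a-5p had -0.33 and -0.93.

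Use of the 5p arm differed between both genes in the SOLiD run. For Mir29c the 5p strand made up 6.80% and then 9.36% of the reads on both arms in total RNA (95% Wilson intervals 6.27 to 7.38 and 8.70 to 10.1), and 5.09% and 5.96% in RNA of 25 to 40 nt. For Mir29a it made up 0.170% (0.129 to 0.224), 0.115% (0.0844 to 0.155), 0.730% and 0.250% in the same order. The 5p share was thus higher for Mir29c in each of the 4 SOLiD libraries. In the Ion Proton libraries the 5p share of Mir29a was 0%, 0.492%, 1.76% and 0.124% in the order control 1, control 2, withdrawal 1 and withdrawal 2 (exact two-sided permutation test, p = 0.667). That of Mir29c was 0.755% (4 of 530 reads) in withdrawal replicate 1 and 0 of 591 to 896 reads in the other 3. The 5p share was thus not higher for Mir29c in any Ion Proton library, from at most 14 reads on a 5p strand.

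The list of other products of the same hairpins held 5 features, namely the 5p strands of Mir29b-1 and Mir29b-2 and 3 hairpin features. mmu-miR-29b-1-5p had 17.3 and 12.1 CPM in Ion Proton controls and 14.1 and 19.3 CPM after withdrawal, and 26.5 to 172 RPM in the SOLiD libraries. mmu-miR-29b-2-5p had 2.32 and 6.68 CPM, then 1.99 and 2.15 CPM, and 35.8 to 104 RPM. Unlike the 5p strands of Mir29a and Mir29c, mmu-miR-29b-1-5p and mmu-miR-29b-2-5p thus both had reads in each Ion Proton library. mmu-miR-29b-1-5p lay below the level of mmu-miR-29b-3p each time. In SOLiD total RNA it had 40.5 RPM in control cells and 26.5 RPM after withdrawal, beside 429 and 249 RPM of mmu-miR-29b-3p. Of the 3 products tested in the Ion Proton run, none passed the threshold with the 4 libraries by edgeR, DESeq2 or limma, adjusted or not, 1 lay above 0 and 2 below, with a median log2 fold change of -0.45 beside -0.39 over mature miRNAs. In both runs together none of the 3 passed by limma, adjusted or not, and the median was -0.10. Scaled to mature miRNA reads these medians were -0.06 and 0.37, the second with the opposite sign. The values of these products depended on single libraries. Without control replicate 1 of the Ion Proton run, the edgeR log2 fold change of mmu-miR-29b-2-5p was -1.74. That of the hairpin feature of Mir29b-1, ENSMUST00000083670, was -1.24 in that fit, whereas without control replicate 2 it was 0.85. The hairpin feature of Mir29b-1 had 25 and 91 reads in Ion Proton controls and 36 and 34 after withdrawal, and at most 8 in a SOLiD library.

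Of 11 other miRNAs described elsewhere as acting on Mcl1 mRNA, 6 were tested in the Ion Proton run, and 3 of these fell by the edgeR test, in which 13.3% of mature miRNAs and 8.97% of all features passed as lower. mmu-miR-181a-5p had 9171 and 9722 CPM in control cells and 6547 and 6303 CPM after withdrawal, a log2 fold change of -0.50 (adjusted p = 0.00914 by edgeR). mmu-miR-181b-5p had 1956 and 2003 CPM, then 1249 and 1281 CPM, a log2 fold change of -0.59 (adjusted p = 0.00713 by edgeR). mmu-miR-125b-5p also fell (-1.05, adjusted p = 0.0289 by edgeR), from 26.8 and 35.6 CPM to 13.2 and 15.9 CPM. mmu-miR-320-3p had 1406 and 1314 CPM, then 1454 and 1279 CPM, and did not pass (0.06, adjusted p = 0.692 by edgeR). The median of the 6 was -0.42, near the -0.39 of all mature miRNAs. In both runs together the same 3 passed as lower by limma (adjusted p from 0.0185 to 0.0215), where 9.71% of mature miRNAs and 5.70% of all features did, with a median of -0.71. By edgeR mmu-miR-125b-5p did not pass without withdrawal replicate 1 (-0.90, adjusted p = 0.123) or 2 (-1.20, adjusted p = 0.0655). In both runs together none of the 3 passed by limma without 1 of the Ion Proton libraries (adjusted p from 0.0504 to 0.118), where 15 to 81 of all features did. Scaled to mature miRNA reads, 0 of the 6 passed in either fit, with medians of -0.03 and -0.07, and at an unadjusted p under 0.05 there were 3 in the Ion Proton run (1 higher and 2 lower) and 2 in both runs (1 higher and 1 lower).

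The study used human miR-24 as a reference in RT-qPCR of serum, and U2 snRNA in that of BMDMs. mmu-miR-24-3p had 2024 and 2093 CPM in control cells and 1624 and 1605 CPM after withdrawal. In both runs together its log2 fold change was -0.36 and did not pass by limma, and it was 0.27 scaled to mature miRNA reads. The values that follow are those of the Ion Proton run. Its log2 fold change was -0.30 (adjusted p = 0.0362 by edgeR), close to that of mmu-miR-29a-3p, and 0.09 with TMM factors set on mature miRNAs (adjusted p = 0.434 by edgeR).

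Features with the pattern most like each 3p member were named by the root mean square difference of log2(level + 1), centred on the mean of the 8 libraries, among 136 other mature miRNAs with a mean of at least 10 CPM or RPM in each kind of library. For mmu-miR-29a-3p these were mmu-miR-30c-5p (0.29), mmu-miR-19a-3p (0.52) and mmu-miR-99a-5p (0.59), beside a median of 2.19 over the 136. For mmu-miR-29c-3p they were mmu-miR-324-5p (0.19), mmu-miR-106a-5p (0.32) and mmu-miR-185-5p (0.32), beside 1.61. For mmu-miR-29b-3p they were mmu-miR-151-5p (0.36), mmu-miR-15a-5p (0.41) and mmu-miR-324-5p (0.42), beside 1.75. On this measure mmu-miR-29c-3p lay closer to mmu-miR-29b-3p (0.39) than to mmu-miR-29a-3p (0.89). The difference in level between the runs enters the measure, so a small value need not mean a like response to withdrawal. In the Ion Proton run mmu-miR-30c-5p had 96.8 and 107 CPM in control cells and 98.1 and 116 CPM after withdrawal. There mmu-miR-19a-3p had 31.1 and 30.4 CPM, then 22.5 and 24.0 CPM, and mmu-miR-99a-5p had 202 and 228 CPM, then 108 and 120 CPM. Both were lower after withdrawal, as were mmu-miR-29a-3p and most mature miRNAs (411 of 600 below 0 in the edgeR fit).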

How the data were processed

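Adapters of Ion Proton reads were removed by the authors with cutadapt 1.2.1, who discarded reads shorter than 15 bases, mapped to mm10 with bowtie2 2.2.4 in local mode with up to 10 places per read, and deposited unnormalized counts per feature (miRBase miRNAs, tRNAs and Ensembl non-coding RNAs). How reads with several places were counted is not given in the sources used here. For the SOLiD run the authors mapped with LifeScope and deposited RPM relative to the reads on listed features. From these RPM values whole reads were recovered, since 100% lay within 0.01 of a whole number. The labels and the methods differ in RNA input, read length and extraction, and the labels call the Ion Proton extract small RNA where the methods say total RNA.

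The quasi-likelihood test of edgeR 4.0.16 (R 4.3.3, TMM factors) was applied to those Ion Proton features whose counts summed to 5 or more. The 6 total RNA libraries were tested with limma 3.58.1 (intensity trend, treatment and run) on log2 of RPM or CPM plus 1, for features with at least 5 reads in each run, and the interaction in the same way. P-values were adjusted by Benjamini-Hochberg over all features tested, threshold 0.05. The Ion Proton replicates of a condition differed by more than counting noise (chi-square per degree of freedom 15.6 and 14.1). A comparison with counting noise cannot tell libraries of the same RNA from those of separate cultures. That they were biological replicates is taken from the study's methods. DESeq2 1.42.0, other scalings, filters and pseudocounts and the leaving out of libraries were alternatives. Shares of single libraries have 95% Wilson intervals, which like the limits for 0 reads cover counting error only. Shares and sequences were computed with Python 3.11.15, numpy 2.4.6, pandas 2.3.3 and scipy 1.17.1, and figures with matplotlib 3.10.9. The fits were tested on simulated data. The members and lists were chosen with earlier results of these data known. Named features were the 5 members, 2 to 4 of highest mean level per list, those of a list that passed, and the 3 most alike to each 3p member.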

Additional observations from a re-analysis of the deposited data

Results flagged for a closer look

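The change of mmu-miR-29c-3p after M-CSF withdrawal differed between the runs. In Ion Proton libraries its log2 fold change lay 0.98 above that in the SOLiD libraries of total RNA (interaction of treatment and run, adjusted p = 0.0285 by limma). The SOLiD ratio was -1.32 from 1 library a condition, and the Ion Proton libraries had 115 and 109 CPM in control cells and 80.7 and 97.6 CPM after withdrawal. With each library centred on its median the difference was 1.45 (adjusted p = 0.0108 by limma). Scaled to mature miRNA reads it was 0.44 (adjusted p = 0.202 by limma). The share of reads on mature miRNAs moved with the condition in both runs, from 82.0% to 41.1% in SOLiD total RNA and from 39.99% and 41.2% to 29.5% and 29.9% in the Ion Proton run; its part in the difference was not tested beyond that scaling. Without 1 of the 4 Ion Proton libraries the difference was 0.85 to 1.12 and did not pass. Each of these fits kept 1 Ion Proton library in 1 condition. Other features still passed without either control replicate, but none did without either withdrawal replicate.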

How the results depend on the processing

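The direction of the 3p members depended on the scaling. In the Ion Proton run, TMM factors set on mature miRNAs turned mmu-miR-29a-3p to 0.038, mmu-miR-29b-3p to 0.24 and mmu-miR-29c-3p to 0.10. In that run mmu-miR-29a-3p passed with RLE size factors (-0.47), DESeq2 (-0.47) and limma (-0.40). In these fits 255, 238 and 229 of all features passed as lower, in place of 182. In both runs, mature miRNA scaling turned mmu-miR-29a-3p to 0.10, mmu-miR-29b-3p to 0.24 and mmu-miR-29a-5p to 0.58, median centring took mmu-miR-29a-3p to -0.83, and a pseudocount of 0.5 turned mmu-miR-29a-5p to 0.051. For the difference between the runs, mature miRNA scaling gave -0.15 for mmu-miR-29a-3p and 0.44 for mmu-miR-29c-3p. Median centring gave 0.87 for mmu-miR-29a-3p and 1.45 for mmu-miR-29c-3p, and both passed. In SOLiD total RNA, mature miRNA scaling gave 0.20, 0.21 and -0.32 for miR-29a, miR-29b and miR-29c, and median centring -1.22, -1.21 and -1.75. In RNA of 25 to 40 nt these were 0.59, -0.0080 and 0.11, and -1.27, -1.86 and -1.74. With all listed arms in the sum, the share of mmu-miR-29c-3p fell by 0.195 percentage points in place of a rise of 0.495. Under the other filters, scalings, pseudocounts and tests tried with all libraries kept, the 3p members stayed below 0 in the Ion Proton run and in both runs, but voom on counts and recovered reads gave larger falls in both runs, -0.96, -0.94 and -1.15 for miR-29a, miR-29b and miR-29c in place of -0.53, -0.39 and -0.66, with 397 features past the threshold in place of 295.

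With the replicate number as a block, the Ion Proton log2 fold changes were -0.35, -0.14 and -0.29 for miR-29a, miR-29b and miR-29c, and features past the threshold went from 500 to 359. In both runs the replicate block gave 29 features in place of 295, and no member passed in either. Same-numbered libraries share only a number (correlation of deviations -0.0397 across 2029 features).

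Leaving out each library in turn gave, in the Ion Proton run, -0.48 to -0.25 for mmu-miR-29a-3p, -0.46 to 0.15 for mmu-miR-29b-3p, -0.44 to -0.13 for mmu-miR-29c-3p and -1.17 to 6.02 for mmu-miR-29a-5p, and 299 to 528 features, with 299 and 312 without withdrawal replicate 1 or 2. In both runs it gave -0.61 to -0.40 for mmu-miR-29a-3p, -0.60 to -0.19 for mmu-miR-29b-3p and -0.83 to -0.34 for mmu-miR-29c-3p (highest without either SOLiD library and lowest without Ion Proton withdrawal replicate 2 for both), -0.62 to 0.50 for mmu-miR-29a-5p and 15 to 564 features (564 and 560 without the SOLiD control or withdrawal library, 81 and 19 without Ion Proton control replicate 1 or 2, 15 and 16 without withdrawal replicate 1 or 2). The difference between the runs was 0.85 to 1.12 for mmu-miR-29c-3p and 0.32 to 0.88 for mmu-miR-29b-3p, the lowest and highest without Ion Proton withdrawal replicate 2 and 1. Differences of the share among 3p members were -3.20 to 0.119 percentage points for miR-29a and -0.132 to 2.23 for miR-29b, and that of the 5p share of miR-29a -0.122 to 1.51. Differences of the share of mature miRNA reads were -0.000329 to 0.00347 for miR-29a, -0.000201 to 0.00293 for miR-29b and -0.000308 to 0.00502 for miR-29c. The cause of these changes was not tested beyond the scaling itself. Depth limits the 5p strands, with at most 14 Ion Proton reads, and 2 libraries against 2 cannot give an exact p under 0.333.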
